A study of Mus musculus with 9 samples.

Results

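The genes described here are the 10 enzymes of the glycerol-3-phosphate pathway of triglyceride synthesis, namely Gpd1, Gpam, Gpat3, Gpat4, Agpat2, Agpat3, Lpin1, Lpin2, Dgat1 and Dgat2. They were matched by gene symbol to the 54532 genes of the deposited tables, and all 10 were found and had counts in every library. RNA sequencing was performed on 3T3-L1 cells, a clonal mouse preadipocyte line that turns into fat cells under a hormone mixture, to ask how lysine starvation changes the transcripts of differentiation. There were 3 groups of 3 libraries. The growth description that all samples share is high glucose DMEM with bovine calf serum and 3 days at confluence. The Undifferentiated cells received no mixture, and the time of their harvest is not given in the labels. The Differentiated cells were then given a mixture of insulin (10 μg/mL), rosiglitazone (1 μM), IBMX (0.5 mM) and dexamethasone (1 μM), in DMEM made without arginine and lysine, with fetal bovine serum and with both amino acids put back. The Lysfree cells received the same mixture in the same medium with arginine but no lysine put back, so serum was their only stated source of lysine, and both induced groups were harvested after 3 days of differentiation.

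Triglyceride is built in the endoplasmic reticulum by adding fatty acyl chains one after another to glycerol-3-phosphate. Glycerol-3-phosphate dehydrogenase makes the backbone from a glycolytic intermediate, glycerol-3-phosphate acyltransferases add the first chain, acylglycerolphosphate acyltransferases add the next and give phosphatidic acid, lipins remove the phosphate and give diacylglycerol, and diacylglycerol acyltransferases add the last chain. In fat cells this pathway fills the lipid droplet, while its intermediates phosphatidic acid and diacylglycerol are also the precursors of membrane phospholipids.

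The libraries held 15880144 to 21806693 counted reads, with a median of 17784064. Library 1 of the Lysfree group stood apart from the other libraries of its group. The chi-square statistic per degree of freedom over genes was 43.3 and 44.4 for its 2 pairs, against 2.76 to 12.3 for the other same-group pairs. Leaving it out moved the log2 fold change of no member by more than 0.104 against Differentiated or 0.109 against Undifferentiated, in both cases for Gpat3, and left the number of members called at 7 and 3. No label says whether the libraries of a group came from separate cultures, so the p-values measure the spread between these libraries, which may be technical. In bulk RNA, fewer fat cells and less transcript per cell cannot be told apart.

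Levels are the deposited FPKM, a read abundance scaled for gene length and sequencing depth, which can be compared between genes. They also hold a scaling factor per library, which is described with the processing. Fold changes are log2 values from edgeR's quasi-likelihood test on counts, with the standard error (SE) and the Benjamini-Hochberg adjusted p over all genes tested, and n = 3 libraries per group. A gene was called changed when the adjusted p was below 0.05 and the change was at least 2-fold. Adjusted p-values given as 0 were too small for the software to hold.

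Between Undifferentiated and Differentiated cells, the members rose at every step. Of the 10 genes, 7 were called higher and none lower, where 10.4% of all genes tested were called higher and 11.4% lower. Among genes with a mean CPM (counts scaled to the size of the library) of at least 1, 14.7% were called higher. The median log2 fold change of the 10 genes was 3.08, beside 0.019 over all genes tested. When lysine was left out during differentiation, 7 of the 10 genes were called lower than in Differentiated cells and none higher. The share of all genes called was 10.5% lower and 8.14% higher, and 14.7% of genes with a mean CPM of at least 1 were called lower. The median of the 10 genes was -2.74, beside -0.058 over all genes. The 3 genes that were not called in that comparison were Gpam, Gpat4 and Lpin2. The comparisons against the Differentiated group share its libraries, so the rise and the fall are not independent of each other.

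**Figure D1:**
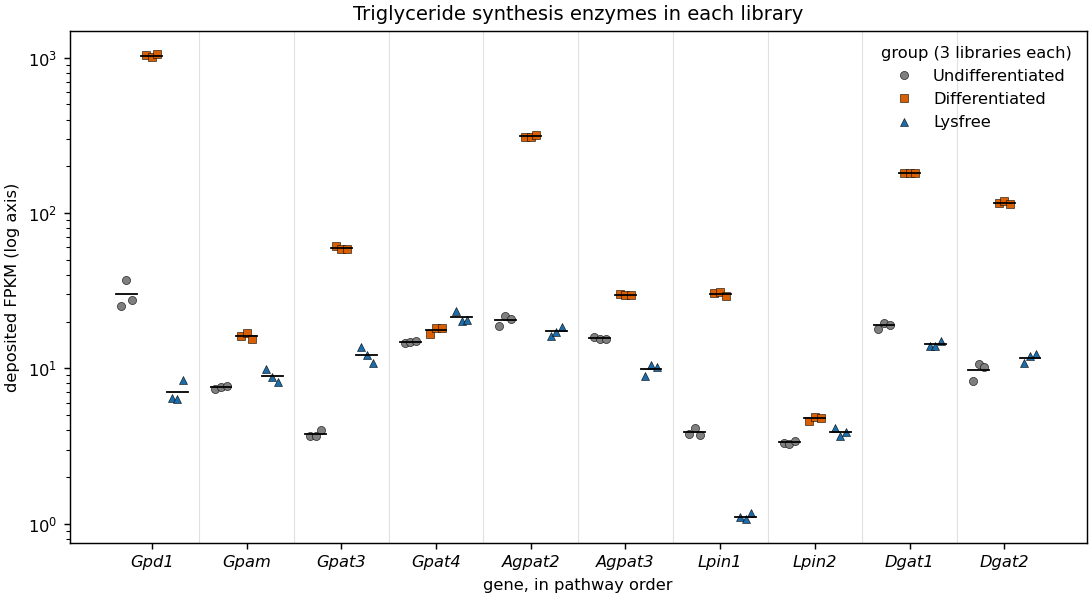
The plot shows the deposited FPKM of each of the 10 genes (log axis) in the 9 libraries, 3 per group, with a line at each group mean. Gpd1, Agpat2, Dgat1 and Dgat2 stand above 100 FPKM in the Differentiated libraries alone, while Gpat4 and Lpin2 differ little between groups and Lpin1 is lowest in the Lysfree libraries.

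The promoters of the members were read from RefSeq sequences of build GRCm38.p6, where 6 of the 10 genes had a window. Gpd1, Gpat4, Dgat1 and Dgat2 had none. The 250 bases before the start are printed, 5′ to 3′ on the strand of the gene, for Agpat2 and Lpin1, which were called lower together without lysine, and for the upstream start of Gpam, which was not. No exon of GENCODE release M21 overlaps these 3 windows. Capitals mark the motifs that were found. The regions are chr2:26604418-26604667 for Agpat2, chr12:16610967-16611216 for Lpin1 and chr19:55127239-55127488 for Gpam, all on the minus strand. The printed Gpam window lies upstream of, and apart from, the deposited span of Gpam (55069734 to 55099451). A second Gpam window, next to that span at 55099478 to 55099727, held none of the motifs.
Agpat2: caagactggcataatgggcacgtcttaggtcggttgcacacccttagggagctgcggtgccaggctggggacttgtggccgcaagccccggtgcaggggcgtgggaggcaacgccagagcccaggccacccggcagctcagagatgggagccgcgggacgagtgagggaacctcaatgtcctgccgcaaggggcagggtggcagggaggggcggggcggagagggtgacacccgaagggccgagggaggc
Lpin1: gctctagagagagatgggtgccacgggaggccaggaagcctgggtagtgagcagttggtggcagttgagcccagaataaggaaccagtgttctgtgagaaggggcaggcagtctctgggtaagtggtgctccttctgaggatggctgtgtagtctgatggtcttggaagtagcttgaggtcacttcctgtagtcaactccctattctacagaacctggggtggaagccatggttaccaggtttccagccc
Gpam: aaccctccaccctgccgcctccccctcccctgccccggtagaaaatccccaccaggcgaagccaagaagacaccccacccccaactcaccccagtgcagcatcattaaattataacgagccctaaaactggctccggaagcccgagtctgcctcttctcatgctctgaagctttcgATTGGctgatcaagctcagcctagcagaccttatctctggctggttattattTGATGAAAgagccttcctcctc

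Both strands of the 250 bases were searched for 7 motifs in the 9 windows of the 6 genes and in all 32851 windows of the table. The PPAR element, a pair of AGGTCA copies separated by 1 base with up to 2 mismatches, was in no member window and in 3.24% of all windows. The C/EBP palindrome TTGCNNAA was in 2 member windows, of Agpat3 at -149 to -142 from the start and of Lpin2, and in 9.56% of all windows. CCAAT was in 2, of Gpam at -74 to -70, where it reads ATTGG on the printed strand, and of Lpin2, and in 33.8% of all windows. The ATF4-C/EBP composite TGATGNAA, a site type of the amino acid response, was in 2, of Gpam at -22 to -15 and of Lpin2, and in 3.45% of all windows. The E-box CACGTG was in 1, of Lpin2, and in 6.02% of all windows. The sterol element TCACNCCAC (1.05% of all windows) and the cAMP response element TGACGTCA (1.55%) were in none. The printed Agpat2 and Lpin1 sequences hold none of the 7 motifs, which says only that these letters are not in these windows.

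The backbone enzyme moved most. Gpd1 (ENSMUSG00000023019, chromosome 15, 99717515 to 99725005, plus strand, mm10) encodes the cytosolic glycerol-3-phosphate dehydrogenase. Its FPKM was 25.3, 37.1 and 27.7 in the Undifferentiated libraries, 1043, 1006 and 1049 in the Differentiated libraries, and 6.44, 6.34 and 8.37 in the Lysfree libraries. No value of one group reached into another, and the Lysfree libraries lay below cells that had received no mixture. Gpd1 was 33.7-fold higher in Differentiated than in Undifferentiated cells (log2 5.07, SE 0.05, adjusted p = 0). It was 139.9-fold lower in Lysfree than in Differentiated cells (log2 -7.13, SE 0.12, adjusted p = 3.13e-20). Against Undifferentiated cells, Lysfree cells were 4.12-fold lower (log2 -2.04, SE 0.14, adjusted p = 3.96e-14). An antisense transcript, Gm16537, overlaps an exon of Gpd1 and held 1 to 22 counts per library, against 335 to 55473 for Gpd1. The strand setting of the counting is not given in the sources used here.

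The first acylation is catalysed by Gpam, the mitochondrial glycerol-3-phosphate acyltransferase, and by Gpat3 and Gpat4, which reside in the endoplasmic reticulum. Gpat3 (ENSMUSG00000029314, chromosome 5, 100845713 to 100899102, plus strand) read 3.69, 3.65 and 3.99 FPKM in Undifferentiated, 61.5, 58.8 and 58.9 in Differentiated, and 13.6, 12.1 and 10.9 in Lysfree libraries. The Lysfree values lay between those of the other groups and overlapped neither. Gpat3 rose 15.6-fold with differentiation (log2 3.96, SE 0.07, adjusted p = 0) and was 4.68-fold lower in Lysfree than in Differentiated cells (log2 -2.23, SE 0.10, adjusted p = 1.2e-13). It was the member called higher in Lysfree than in Undifferentiated cells, by 3.34-fold (log2 1.74, SE 0.13, adjusted p = 7.61e-13). Exons of 4930458D05Rik on the opposite strand and Gm42987 on the same strand overlap Gpat3, and they held at most 79 and 28 counts in any library, beside 224 to 3834 for Gpat3.

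Gpat4 and Gpam changed less than Gpat3, and Gpat4 also differed from it in the order of the groups. Gpat4 (ENSMUSG00000031545, chromosome 8, minus strand) read 14.6, 14.8 and 15.0 FPKM in Undifferentiated, 16.7, 18.1 and 18.3 in Differentiated, and 23.2, 20.1 and 20.5 in Lysfree libraries, so that its highest values were in the Lysfree group. The change from Differentiated to Lysfree was 0.33 on the log2 scale (SE 0.09, adjusted p = 0.00571), past the adjusted p but under 2-fold, and the only rise among the 10 genes in that comparison. Against Undifferentiated cells, Gpat4 was higher by 0.23 in Differentiated (SE 0.06, adjusted p = 0.000253) and by 0.57 in Lysfree cells (SE 0.10, adjusted p = 1.58e-05), both log2 values. Gpam (ENSMUSG00000024978, chromosome 19, 55069734 to 55099451, minus strand) read 7.40, 7.59 and 7.71 FPKM in Undifferentiated, 16.1, 16.9 and 15.4 in Differentiated, and 9.83, 8.83 and 8.11 in Lysfree libraries. Its rise with differentiation was just over 2-fold (log2 1.07, SE 0.08, adjusted p = 1.18e-43), and this call was lost when the test was made against a 2-fold change (adjusted p = 0.316). In Lysfree cells Gpam was below Differentiated cells by a log2 value of -0.79 (SE 0.11, adjusted p = 2.74e-06) and did not pass the test against Undifferentiated cells (log2 0.28, SE 0.12, adjusted p = 0.0707).

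The next chain is added by Agpat2, whose loss in humans causes generalised lipodystrophy, and by Agpat3, which also acylates other lysophospholipids. Agpat2 (ENSMUSG00000026922, chromosome 2, 26593057 to 26604417, minus strand) read 18.8, 21.6 and 20.8 FPKM in Undifferentiated, 309.97, 308.4 and 318.5 in Differentiated, and 16.1, 17.2 and 18.5 in Lysfree libraries. In FPKM the Lysfree libraries all lay just below the Undifferentiated ones, with 18.5 against 18.8 at the nearest. This narrow gap depends on the scaling of the deposited FPKM. Agpat2 rose 15.0-fold with differentiation (log2 3.91, SE 0.06, adjusted p = 0) and was 17.3-fold lower in Lysfree than in Differentiated cells (log2 -4.11, SE 0.10, adjusted p = 4.97e-18). The difference between Lysfree and Undifferentiated cells did not pass the test, with a log2 value of -0.19 (95% interval -0.42 to 0.04, adjusted p = 0.233). Egfl7 on the opposite strand shares an exonic overlap with Agpat2 and held 22 to 97 counts per library, beside 604 to 12233 for Agpat2.

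Agpat3 (ENSMUSG00000001211, chromosome 10, 78269178 to 78352489, minus strand) read 16.0, 15.5 and 15.3 FPKM in Undifferentiated, 30.3, 29.6 and 29.6 in Differentiated, and 8.93, 10.4 and 10.2 in Lysfree libraries. Its rise with differentiation passed the adjusted p but stayed under 2-fold (log2 0.91, SE 0.06, adjusted p = 1.34e-58). In Lysfree cells it was called lower than in Differentiated cells (log2 -1.53, SE 0.09, adjusted p = 1.67e-11). It also lay below Undifferentiated cells in every library, by a log2 value of -0.62 (SE 0.10, adjusted p = 7.41e-06).

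The lipin members had the lowest summed FPKM of the 4 steps with several members in every group. The phosphatases Plpp1, Plpp2 and Plpp3 are of the same step but are not members. In Undifferentiated, Differentiated and Lysfree cells Plpp3 read 204.8, 86.5 and 53.6 FPKM, Plpp1 84.8, 54.4 and 34.5, and Plpp2 14.8, 9.09 and 15.0. Lpin1 (ENSMUSG00000020593, chromosome 12, 16535669 to 16610966, minus strand) is the lipin whose mutation causes the fatty liver dystrophy mouse. It read 3.78, 4.11 and 3.73 FPKM in Undifferentiated, 30.4, 30.8 and 29.2 in Differentiated, and 1.11, 1.06 and 1.16 in Lysfree libraries. The Lysfree libraries were the lowest of all values of the members, on 188 to 218 counts each. Lpin1 rose 7.61-fold with differentiation (log2 2.93, SE 0.06, adjusted p = 0) and was 25.9-fold lower in Lysfree than in Differentiated cells (log2 -4.70, SE 0.10, adjusted p = 2.47e-18). With limma on log2(FPKM + 1), where the added 1 is close to the Lysfree level, that log2 change was -3.88 (adjusted p = 1.2e-06). Against Undifferentiated cells it was 3.38-fold lower (log2 -1.76, SE 0.13, adjusted p = 8.61e-13).

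Lpin2 (ENSMUSG00000024052, chromosome 17, plus strand), a second lipin with the same activity, read 3.31, 3.28 and 3.42 FPKM in Undifferentiated, 4.61, 4.89 and 4.80 in Differentiated, and 4.10, 3.64 and 3.87 in Lysfree libraries. Its log2 change was 0.49 with differentiation (SE 0.07, adjusted p = 8.02e-11), which is under 2-fold. Between Lysfree and Differentiated cells the log2 difference was -0.24 (95% interval -0.43 to -0.04, adjusted p = 0.0675), and between Lysfree and Undifferentiated cells it was 0.26 (95% interval 0.04 to 0.48, adjusted p = 0.0703). Neither passed the test.

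Dgat1 and Dgat2 catalyse the last acylation and belong to separate protein families. Dgat1 (ENSMUSG00000022555, chromosome 15, 76502015 to 76511953, minus strand) read 17.9, 19.6 and 19.1 FPKM in Undifferentiated, 180.7, 180.7 and 180.9 in Differentiated, and 13.9, 14.0 and 15.0 in Lysfree libraries. Dgat2 (ENSMUSG00000030747, chromosome 7, 99153658 to 99182719, minus strand) read 8.28, 10.7 and 10.3 FPKM in Undifferentiated, 116.2, 118.7 and 114.6 in Differentiated, and 10.8, 11.9 and 12.3 in Lysfree libraries. In Lysfree cells both lay near the Undifferentiated level, Dgat1 just below it and Dgat2 just above it, and far from the Differentiated libraries. Dgat1 rose 9.40-fold with differentiation (log2 3.23, SE 0.06, adjusted p = 0), and Dgat2 rose 11.7-fold (log2 3.55, SE 0.06, adjusted p = 0). In Lysfree cells Dgat1 was 12.1-fold lower than in Differentiated cells (log2 -3.59, SE 0.09, adjusted p = 1.8e-17), and Dgat2 was 9.54-fold lower (log2 -3.25, SE 0.10, adjusted p = 2.31e-16). Against Undifferentiated cells the log2 difference of Dgat1 was -0.35 (SE 0.11, adjusted p = 0.0105), under 2-fold, and that of Dgat2 was 0.31 (95% interval 0.06 to 0.56, adjusted p = 0.0576), which did not pass.

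**Figure D2:**
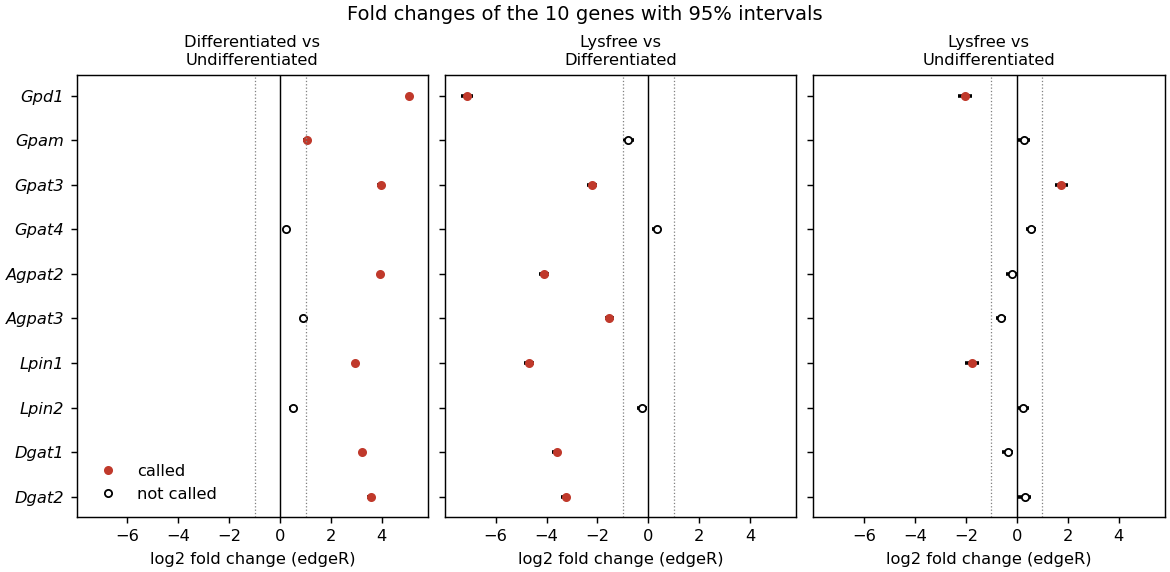
Log2 fold changes from edgeR (points) with their 95% intervals (lines) are plotted for the 10 genes in the 3 comparisons, with filled points for genes called and dotted lines at a 2-fold change. The filled points lie to the right for 7 genes with differentiation and to the left for 7 genes without lysine, and in the comparison of Lysfree with Undifferentiated cells they are Gpat3 to the right and Gpd1 and Lpin1 to the left.

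Against cells that never received the mixture, the Lysfree cells held a mixed pattern. One gene, Gpat3, was called higher and 2, Gpd1 and Lpin1, were called lower, while 7 were not called. Over all genes tested 5.52% were called higher and 8.76% lower in this comparison, and among genes with a mean CPM of at least 1 the shares were 8.37% and 12.1%. The median of the 10 genes was 0.03 on the log2 scale, beside -0.015 over all genes. By the deposited FPKM, the 3 Lysfree libraries did not overlap the 3 Undifferentiated libraries for any of the 10 genes, with 5 higher and 5 lower. For Agpat2 the gap was 18.5 against 18.8 FPKM at the nearest, and it depends on the scaling of the deposited FPKM. Separation between these groups was common, since it held upward for 33.5% and downward for 34.6% of genes with a mean CPM of at least 1. With differentiation all 10 genes separated upward, beside 41.1% of such genes. From Differentiated to Lysfree, 9 separated downward, beside 37.3%, and 1 upward, beside 35.0%. An exact two-sided permutation test of 3 against 3 libraries cannot go below p = 0.1, so none was used for single values.

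The order of the genes by level differed between the groups. In Differentiated cells Gpd1 (1033 ± 23.3 FPKM, mean ± SD, n = 3) was followed by Agpat2 (312.3 ± 5.43), Dgat1 (180.8 ± 0.122), Dgat2 (116.5 ± 2.05) and Gpat3 (59.7 ± 1.53), and the libraries of each of these genes lay apart from the next. Lpin1 and Agpat3 overlapped around 30.1 and 29.8 FPKM, Gpat4 and Gpam overlapped at 17.7 and 16.1, and Lpin2 was lowest at 4.77. In Lysfree cells Gpat4 led with 21.3 ± 1.70 FPKM, ahead of Agpat2 at 17.3 ± 1.20 and Dgat1 at 14.3 ± 0.608. Gpat3 and Dgat2 overlapped at 12.2 and 11.7, Agpat3, Gpam and Gpd1 formed a chain of overlapping neighbours from 9.84 to 7.05, and Lpin2 at 3.87 and Lpin1 at 1.11 closed the order. The highest mean was 217 times the lowest in Differentiated cells, 19.2 times in Lysfree cells and 9.0 times in Undifferentiated cells.

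Summed over the members of a step, mean levels in Lysfree cells were below those of Undifferentiated cells for every step but the first acylation. For the 2 Dgat genes the library sums overlapped, at 24.7 to 27.3 FPKM in Lysfree and 26.2 to 30.3 in Undifferentiated libraries. Same-step genes outside the members are left out of these sums. Among them, Agpat1 read 21.2 FPKM in Undifferentiated and 29.2 in Lysfree cells, Agpat5 3.69 and 8.93, and Agpat4 12.2 and 10.7. The summed FPKM of Gpam, Gpat3 and Gpat4 was 26.1 ± 0.553 in Undifferentiated, 93.6 ± 0.839 in Differentiated and 42.4 ± 3.80 in Lysfree cells. That of Agpat2 and Agpat3 was 36.0 ± 1.17, 342.1 ± 5.33 and 27.1 ± 1.86. That of the 2 lipins was 7.21 ± 0.161, 34.9 ± 0.852 and 4.98 ± 0.257, and that of the 2 Dgat genes was 28.6 ± 2.18, 297.3 ± 1.97 and 26.0 ± 1.33. These sums describe transcripts and not enzyme activity, which was not measured in these files.

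**Figure D3:**
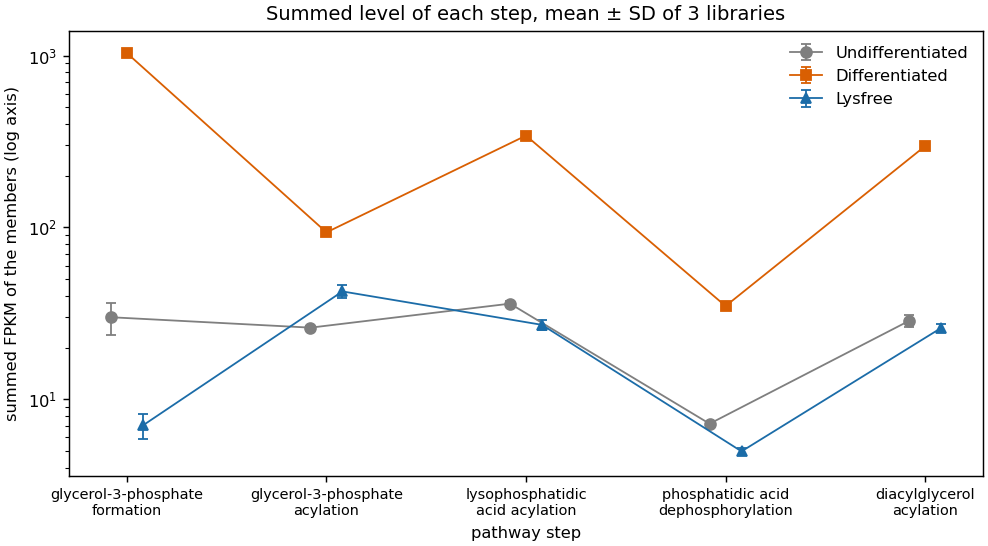
The summed FPKM of the members at each of 5 pathway steps is shown on a log axis as the mean ± SD of 3 libraries per group. The Differentiated line lies above the others at every step, and the Lysfree line crosses above the Undifferentiated line at the acylation of glycerol-3-phosphate, with 42.4 against 26.1 FPKM.

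Within a step, the members did not keep their proportions. In Differentiated cells Gpat3 made up 63.8% ± 1.28 of the summed FPKM of its step and Gpat4 18.9% ± 1.07 (SD, n = 3). In Lysfree cells Gpat4 made up 50.2% ± 1.52 and Gpat3 28.8% ± 1.07, and in Undifferentiated cells the shares were 56.6% ± 0.327 and 14.4% ± 0.467. The leading lipin also changed. Lpin1 held 86.3% ± 0.468 of the lipin sum in Differentiated and 53.7% ± 1.75 in Undifferentiated cells, but 22.3% ± 0.965 in Lysfree cells, where Lpin2 held the other 77.7%. Agpat2 held 91.3% ± 0.195 of the sum of Agpat2 and Agpat3 in Differentiated, 56.6% ± 2.29 in Undifferentiated and 63.7% ± 1.33 in Lysfree cells. Agpat1, Agpat4 and Agpat5 are not members and are not in that sum. In Lysfree cells Agpat1 read 29.2 FPKM, above Agpat2 at 17.3. Dgat1 held 66.0% ± 2.02 in Undifferentiated, 60.8% ± 0.432 in Differentiated and 55.1% ± 1.21 in Lysfree cells. For each of these shares the libraries of any 2 groups did not overlap. The shares are given as a description and were not tested.

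**Figure D4:**
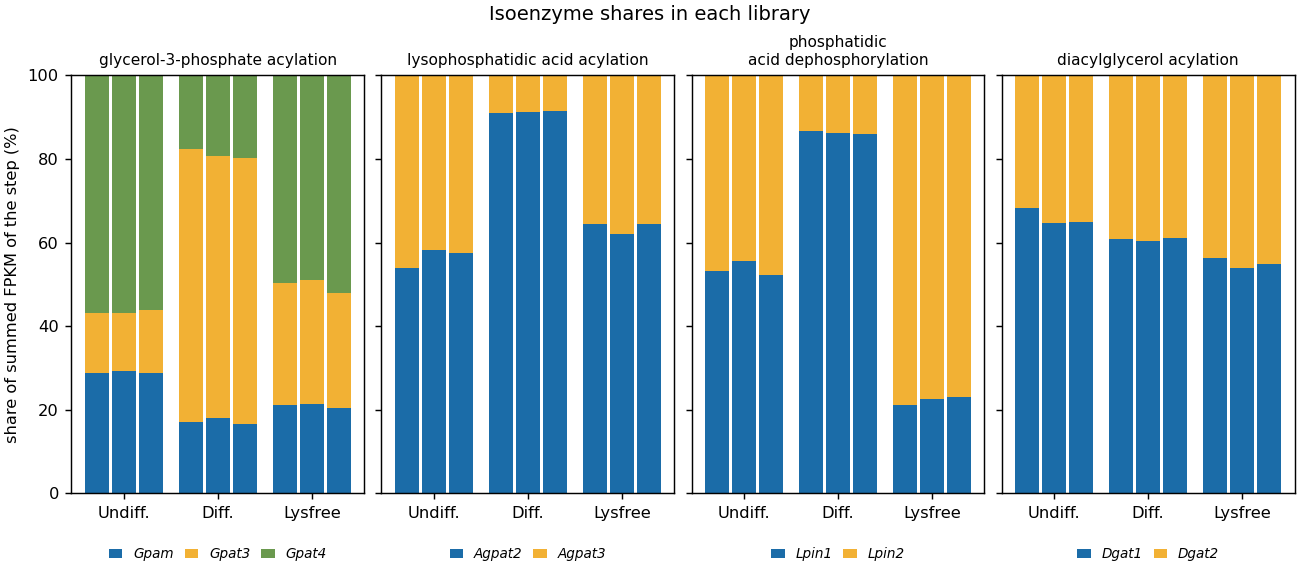
Each bar is 1 library and shows how the summed FPKM of the members of a step divides among them, in percent, for 4 steps and 3 groups. Gpat3, Agpat2 and Lpin1 take the larger part in the Differentiated bars. In the Lysfree bars Gpat4 and Lpin2 lead the members of their steps with 50.2% and 77.7%.

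The genes whose pattern over the 9 libraries was most like that of a member were found among 12710 genes with a mean CPM of at least 1, by the root mean square (RMS) difference of centred log2(CPM + 1). For Gpd1 they were Lgals12, Cidec and Mrap, with RMS differences of 0.39, 0.42 and 0.50. Cidec, a lipid droplet protein of fat cells, read 36.7 FPKM in Undifferentiated, 2452 in Differentiated and 12.05 in Lysfree cells. For Gpat3 they were Ppa1, an inorganic pyrophosphatase, Nav3 and Disp2, from 0.13 to 0.22. Ppa1 read 8.13, 140.0 and 25.0 FPKM in the same order. For Lpin1 they were Pdzd2, Sort1 and Pla2g16, from 0.13 to 0.16, and Sort1, a sorting receptor, read 3.79, 24.8 and 0.858 FPKM.

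For Agpat2 the nearest genes were 4631405J19Rik, Glul and Sprr1a, from 0.12 to 0.20, and Glul, glutamine synthetase, read 9.28, 165.8 and 10.2 FPKM. For Agpat3 they were Mum1, Prkaca and a gene that the table lists under the date-like symbol Sep-09 (ENSMUSG00000059248), from 0.06 to 0.07. For Dgat1 they were Arxes1, Krt36 and Fmo1, from 0.10 to 0.13, and for Dgat2 Fam241a, Tmem120a and Arhgef37, from 0.14 to 0.16. Several of these genes were near 0 outside the Differentiated group, where the added 1 CPM narrows differences. Between members, the closest pairs were Gpat4 with Lpin2 (0.23), Gpam with Lpin2 (0.27) and Dgat1 with Dgat2 (0.27).

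Genes around the substrates of the pathway were examined as lists. Of 6 other genes of glycerol and glycerol-3-phosphate metabolism, 4 were called higher with differentiation, and 3 were called lower and 1 higher in Lysfree than in Differentiated cells. Aqp7, the glycerol channel of fat cells, read 0.718, 13.5 and 0.121 FPKM in Undifferentiated, Differentiated and Lysfree cells, and its log2 change without lysine was -6.72 (SE 0.21, adjusted p = 4.14e-16). Pck1, the cytosolic enzyme of glyceroneogenesis, changed by -7.76 (SE 0.27, adjusted p = 2.73e-15), on 1 to 4 counts per Lysfree library. Glycerol kinase, Gk, fell by 1.60 (SE 0.16, adjusted p = 5.82e-08). Gpd2, the mitochondrial enzyme that oxidises glycerol-3-phosphate, moved the other way from Gpd1, and read 5.77, 5.17 and 11.3 FPKM (log2 1.19 without lysine, SE 0.11, adjusted p = 1.53e-08).

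Of the 6 acyl-CoA genes 5 were tested, with 4 called higher with differentiation and 3 called lower without lysine. Acsl1, the main long-chain acyl-CoA synthetase of fat cells, read 6.83, 269.0 and 4.90 FPKM in the 3 groups and fell by 5.71 on the log2 scale without lysine (SE 0.11, adjusted p = 3.09e-19). Dbi, which binds acyl-CoA, fell by 2.51 (SE 0.14, adjusted p = 4.92e-12) and Acsl3 fell by 1.59 (SE 0.11, adjusted p = 1.1e-10). Acsl4 was called higher in Lysfree than in Undifferentiated cells (log2 1.62, SE 0.12, adjusted p = 4.39e-13), as Gpat3 was. Unlike Gpat3, it did not pass the test between Lysfree and Differentiated cells (log2 0.07, SE 0.12, adjusted p = 0.639). Its Lysfree libraries read 41.3, 28.0 and 28.6 FPKM.

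Enzymes of the same steps that are not among the 10 members were examined next, in a list with Mogat1 and Mogat2. Mogat1 and Mogat2 acylate monoacylglycerol, which is not a step of the glycerol-3-phosphate pathway. Of the 11 genes listed, 2 were called higher and 1 lower with differentiation. Without lysine 1, Lpin3, was called lower, at a mean of under 1 FPKM in each group. Of the 2 called higher, Agpat5 rose by a log2 value of 1.10 (SE 0.07, adjusted p = 1.04e-56), and Mogat1 had at most 3 counts in any library. Plpp3, a broad lipid phosphatase of the cell surface, was lower by -1.27 with differentiation (SE 0.05, adjusted p = 4.63e-135). In Lysfree against Undifferentiated cells, 1 of the 11 was called higher and 3 lower, among them Plpp3 at -1.89 (SE 0.10, adjusted p = 1.18e-16). The medians of these 11 genes were 0.28 with differentiation and -0.36 without lysine, beside 3.08 and -2.74 for the members.

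Diacylglycerol and phosphatidic acid also feed phospholipids. Of 19 genes of that branch, 3 were called higher and 1 lower with differentiation. Without lysine, 2 of 18 tested were called higher and 3 lower. Pcyt2, which makes the activated ethanolamine for phosphatidylethanolamine, read 12.7, 59.2 and 7.79 FPKM in the 3 groups and fell by 2.86 without lysine (SE 0.12, adjusted p = 5.23e-14), in the direction of the triglyceride enzymes. Pemt fell by 1.45 (SE 0.20, adjusted p = 4.82e-06) and Chpt1 fell by 1.30 (SE 0.12, adjusted p = 1.09e-08). The 2 genes called higher were Cdipt, which makes phosphatidylinositol (log2 1.23, SE 0.09, adjusted p = 4.73e-10), and choline kinase Chka (log2 1.18, SE 0.10, adjusted p = 1.87e-09), both named after their values were seen. The median of the 18 genes without lysine was 0.48, opposite in sign to that of the 10 members.

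Of 9 diacylglycerol kinases, which turn diacylglycerol back into phosphatidic acid, 7 were tested. With differentiation 2 were called higher and 2 lower, and without lysine 1, Dgkh, was called higher (log2 1.90, SE 0.14, adjusted p = 4.18e-10). Of 5 genes of lipin dephosphorylation and storage in the endoplasmic reticulum, 2 were called higher with differentiation and lower without lysine. They were Fitm2, which partitions triglyceride into droplets and fell by 1.92 without lysine (SE 0.09, adjusted p = 2.6e-13), and seipin, Bscl2, which fell by 1.69 (SE 0.15, adjusted p = 6.42e-09). All 5 genes of triglyceride hydrolysis were called higher with differentiation and lower without lysine, with medians of 4.12 and -4.02. G0s2, an inhibitor of the lipase Pnpla2, changed by -6.60 (SE 0.17, adjusted p = 1.44e-17), Lipe by -5.03 (SE 0.13, adjusted p = 2.68e-17) and Pnpla2 by -4.02 (SE 0.09, adjusted p = 2.47e-18).

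Of 7 transcription factors and coactivators of lipid genes, 5 were called higher with differentiation and the same number lower without lysine. Pparg, the receptor that rosiglitazone activates, read 13.7, 51.9 and 8.47 FPKM in the 3 groups and fell by 2.55 without lysine (SE 0.12, adjusted p = 2.91e-13). Cebpa fell by 4.25 (SE 0.13, adjusted p = 5.74e-16). Mlxipl fell by 4.82 (SE 0.42, adjusted p = 5.7e-09), on 1 to 5 counts per Lysfree library. Ppargc1a was called higher in Lysfree than in Undifferentiated cells (log2 1.58, SE 0.15, adjusted p = 1.04e-10).

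The defining markers of fat cells were compared in the same libraries. Of 8 adipocyte markers, 7 were called higher with differentiation and all 8 lower without lysine, with summed FPKM of 334 to 446 in Undifferentiated, 6359 to 6654 in Differentiated and 220.1 to 296 in Lysfree libraries. The eighth, Cfd, was lower with differentiation by a log2 value of -0.70 (SE 0.07, adjusted p = 7.25e-23). Lep and Retn had at most 3 counts in each Lysfree library. Of 6 preadipocyte and fibroblast markers, all 6 were called lower with differentiation, and 3 were called higher in Lysfree than in Differentiated cells. In Lysfree against Undifferentiated cells, 4 of these 6 and 4 of the 8 adipocyte markers were called lower, and none of either list higher. The median of their summed FPKM was 3707, 784.8 and 1040.1 in the 3 groups. The part that a changed number of fat cells had in the results was not tested. The summed FPKM of 5 macrophage or leukocyte markers was 13.5 to 16.2 in Undifferentiated, 3.91 to 5.95 in Differentiated and 7.30 to 8.29 in Lysfree libraries, carried by Lyz2 and Cd68, with Ptprc and Adgre1 at most at 3 counts in every library. Lyz2 was called lower with differentiation (log2 -4.24, SE 0.18, adjusted p = 4.57e-115) and higher without lysine (log2 2.36, SE 0.27, adjusted p = 3.35e-07), and its part in the results was not tested. Cd68 was called higher with differentiation (log2 1.29, SE 0.21, adjusted p = 6.35e-09) and did not pass the test without lysine (log2 0.16, SE 0.20, adjusted p = 0.548). Endothelial, skeletal muscle and liver markers summed to at most 0.272, 0.446 and 0.105 FPKM in any library.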

How the data were processed

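RNA of 9 libraries, 3 per group, was sequenced as poly A libraries with paired reads. According to the submitters' processing notes, reads were aligned with HISAT2 2.0.5 to mm10 and assigned to genes with featureCounts 1.5.0-p3. The strand setting and annotation release are not given in the sources used here. The authors deposited raw counts per gene and, in a second table, FPKM. Within each library, FPKM was a fixed multiple of the count divided by gene length and total counts. This multiple was 0.988 to 0.994 in Undifferentiated, 1.032 to 1.037 in Differentiated and 0.932 to 0.953 in Lysfree libraries. The deposited FPKM therefore hold a further scaling factor per library, which differs between the groups. Every column was matched to a sample by its label.

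The 10 members and all related gene lists were chosen with earlier results of these data known. Counts were tested with edgeR 4.0.16 (quasi-likelihood, TMM scaling) in R 4.3.3, for each pair of groups on its own 6 libraries, keeping genes with any count above 0. P-values were adjusted by Benjamini-Hochberg over all genes tested. All 10 members are named. From each related list the 3 largest changes among called genes with a mean CPM of at least 1 are the candidates for naming, with others named where stated, and 3 nearest patterns are given for each member called lower without lysine. The scripts were tested on simulated data. Alternatives were DESeq2 1.42.0, limma 3.58.1 on log2(FPKM + 1), other scalings and filters, a replicate block and leaving out each library. Promoters came from RefSeq and overlaps from GENCODE release M21, which shares the gene spans of 9 of the 10 members.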

Additional observations from a re-analysis of the deposited data

How the results depend on the processing

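No log2 fold change of a member reversed under any alternative. Of the member values, 531 kept their direction and their side of the threshold, 8 became calls and 1 lost its call. All 8 came from dropping the fold threshold. That setting and the test against a 2-fold change keep the main log2 values, so no reversal was possible in them. Without a fold threshold the members called in Lysfree against Undifferentiated cells numbered 6, with 2 higher and 4 lower, in place of 3. The log2 change of Lpin1 without lysine ranged from -4.75 to -3.88 over the alternatives, the smallest with limma on log2(FPKM + 1). The call of Gpam with differentiation was lost against a 2-fold change, as given above. The number of all genes called depended more on the settings. With differentiation it was 5329, and 3488 with at least 10 counts in every library, 11260 without a fold threshold, and 2726 or 2654 with limma on log2(FPKM + 1), the latter at a mean FPKM of at least 1. Without lysine it was 4507, and 2891, 9280, 2198 or 2143 under the same settings and 2657 in a test against a 2-fold change. For Lysfree against Undifferentiated cells it was 3426, and 2244, 8428, 1474, 1452 and 1596. Leaving out each library in turn gave 5037 to 5161, 4120 to 4485 and 3093 to 3448 genes called, and 7, 7 and 3 members. No scaling moved the median log2 fold change of genes with a mean CPM of at least 1 by more than 0.0747. The deviations of libraries with the same number correlated at -0.193 to 0.211, and those with different numbers at -0.253 to 0.211. No pairing by number was seen, but with 3 libraries per group this check cannot exclude it. With the replicate block 4837, 4173 and 3179 genes were called in the 3 comparisons, and 7, 7 and 3 members.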
